A study of Homo sapiens with 12 samples.

Results

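The p24 family of cargo receptors was represented by 7 genes, TMED9, TMED4, TMED2, TMED10, TMED7, TMED5 and TMED3, among the 18569 Ensembl gene IDs of the deposited tables, and by 714 of their 842183 positions. TMED9 was selected from measured values of these libraries that are not named, and its AlkAniline-Seq counts in both groups were taken to be those values. The other genes are members of its family. For that reason the AlkAniline-Seq difference between the groups is given below as a description without a test, and so are the values of TMED9 over input. Tests are given for the input libraries and for AlkAniline-Seq over input of the other 6 genes. The tables pair no symbol with an ID. The names were assigned from a fixed list, TMED9 as ENSG00000184840, TMED4 as ENSG00000158604, TMED2 as ENSG00000086598, TMED10 as ENSG00000170348, TMED7 as ENSG00000134970, TMED5 as ENSG00000117500 and TMED3 as ENSG00000166557, and they could not be checked against RefSeq, whose table of 59792 genes came with 0 Ensembl IDs. For the same reason the level of METTL1, markers of the cell type, the coat proteins that p24 proteins bind, and TMED1 and TMED6 are not analysed here.

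The p24 proteins are membrane proteins of the early secretory pathway. They span the membrane of the endoplasmic reticulum and the Golgi with a lumenal domain that meets cargo and a short cytosolic tail that binds the COPII and COPI vesicle coats, and so cycle between both compartments. They sort cargo such as GPI-anchored proteins into vesicles. They work as mixed complexes drawn from 4 subfamilies, alpha (TMED9 and TMED4), beta (TMED2), delta (TMED10) and gamma (TMED7, TMED5 and TMED3).

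The cells were LNCaP-AI, a castration-resistant prostate cancer line that carries the androgen deprivation label in every sample. One group had METTL1, which methylates the N7 of guanosine inside RNA (m7G), silenced by a stable shRNA (shMETTL1), and the control group carried a scrambled shRNA (shscramble). Each group had 3 replicates with an AlkAniline-Seq and an input library each, 12 libraries in all. The study's methods call replicates biological in general, but whether these libraries came from separate cultures, and whether the lines were pools or clones, is not given in the sources used here, so the p-values may measure only the spread between libraries. AlkAniline-Seq cleaves RNA chemically at m7G and reads the cut ends, so a read is assigned to the position of a cut, and the input is the library made alongside it for the same replicate.

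Read counts summed over all positions were 1421551 to 2764417 in AlkAniline-Seq libraries and 2783709 to 3258499 in input libraries. Several libraries stood apart. In AlkAniline-Seq, shscramble replicate 1 held a read at 99.9% of the 16371 positions with at least 50 reads in shscramble replicate 2 and at all of the 8624 such positions of replicate 3, against 31.1 to 63.4% in the other 28 ordered pairs of AlkAniline-Seq libraries. At the 9964 of these positions where replicate 3 had no read, replicate 1 held a median of 10.6% of the reads of replicate 2 (quartiles 8.05 and 13.5%), and at the 4210 where replicate 2 had no read it held 14.7% of those of replicate 3 (quartiles 11.5 and 18.2%). The same median was 0 for every pair of shMETTL1 AlkAniline-Seq libraries. The 3 shscramble AlkAniline-Seq libraries are therefore not independent as deposited. Fitted differences of each gene that use them are given with and without replicate 1, except for some differences between the groups in AlkAniline-Seq over input. This held for the p24 family too: all 23 of its positions with at least 50 reads in shscramble replicate 2, and all 8 of those in replicate 3, had a read in replicate 1. In the input, shscramble replicate 2 had reads at 72098 positions against 154432 to 311979 in the other input libraries, and its TMM factor was 0.665 against 1.009 to 1.195. In that library the position with the most reads held 82.5% of the reads of TMED9, 99.5% of TMED4, 82.0% of TMED2, 47.2% of TMED10, 99.8% of TMED7, 30.4% of TMED5 and 52.6% of TMED3.

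Promoter sequences were at hand for TMED2, TMED10, TMED7, TMED5 and TMED3. TMED9 and TMED4 had none in the table. The 250 bases before the transcript start are printed for the beta and delta members, TMED2 and TMED10, because both are core subunits of p24 complexes and TMED2 separated the groups in both kinds of library while TMED10 did so in neither. They come from RefSeq, build GRCh38.p14, at chr12:123584302-123584551 on the plus strand for TMED2 and chr14:75176613-75176862 on the minus strand for TMED10, and capitals mark matches on either strand to CCAAT, to the motif CCACG, and to the GC box GGGCGG.
TMED2: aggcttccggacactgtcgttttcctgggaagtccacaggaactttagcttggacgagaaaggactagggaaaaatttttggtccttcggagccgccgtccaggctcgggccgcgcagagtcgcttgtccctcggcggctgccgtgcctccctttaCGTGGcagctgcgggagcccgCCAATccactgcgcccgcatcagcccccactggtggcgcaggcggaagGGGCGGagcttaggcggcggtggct
TMED10: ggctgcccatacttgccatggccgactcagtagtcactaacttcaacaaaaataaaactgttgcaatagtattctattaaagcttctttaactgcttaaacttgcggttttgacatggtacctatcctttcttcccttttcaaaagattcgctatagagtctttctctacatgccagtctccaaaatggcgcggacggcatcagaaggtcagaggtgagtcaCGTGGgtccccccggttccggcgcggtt
CCAAT, the core of the CCAAT box, was found in 3 of these 5 promoters and in 32.0% of the 35097 RefSeq promoters of the same length. CCACG, which with CCAAT makes up the endoplasmic reticulum stress element (ERSE), was found in 4 of 5 and in 33.5%, and GGGCGG, the GC box, in 4 of 5 and in 42.6%. The whole ERSE was found in 0 of 5 and in 0.0741%, and TGACGTG in 0 of 5 and in 1.68%. No match overlapped another in the printed sequences, and these counts are descriptions of letters, since no measurement here was made at a promoter.

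TMED9, the alpha member around which the set was built, recycles in the early secretory pathway and is known for holding a misfolded mucin there. Its AlkAniline-Seq reads numbered 223 (replicate 1), 403 (replicate 2) and 142 (replicate 3) in shscramble, and in the same order 1573, 908 and 839 in shMETTL1. Values below keep this order. After TMM scaling, which corrects for library size and composition, the levels per library size (CPM, counts scaled to equal effective library sizes) were 123, 151 and 101 in shscramble, a mean of 125 ± 25.2 (SD, n = 3), and 614, 369 and 358 CPM in shMETTL1, a mean of 447 ± 145 (SD, n = 3). The lowest shMETTL1 library lay above the highest shscramble library. That held for 7.1% of the 11097 gene IDs tested in AlkAniline-Seq, and 0.00901% of them, 1 gene ID, passed an adjusted p of 0.05 in edgeR's quasi-likelihood test (3 without shscramble replicate 1). The log2 difference of TMED9, shMETTL1 over shscramble, was 1.84 with a standard error (SE) of 0.38, and without shscramble replicate 1 it was 1.82. Since these counts were taken to have chosen TMED9, no test is given and nothing is read from this contrast. The median log2 difference of all gene IDs tested was 0.07.

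The level of TMED9 in input libraries did not separate the groups. The input had 262, 285 and 500 reads in shscramble and 711, 453 and 410 in shMETTL1. These were 83.0, 140 and 156 CPM against 185, 133 and 136 CPM, with means of 126 ± 38.3 and 151 ± 29.2 (SD, n = 3 each). The groups overlapped, with shMETTL1 replicate 1 highest and shscramble replicate 1 lowest. The log2 difference in the input was 0.26 (SE 0.48) with an edgeR adjusted p of 0.96, and it was -0.00019 under DESeq2 scaling and 0.79 without the position with the most input reads of TMED9. In bulk libraries such as these, fewer cells with a transcript and less of it per cell cannot be told apart.

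The AlkAniline-Seq reads of TMED9 set against the input of the same replicate gave log2 ratios of 0.38, -0.20 and -0.81 in shscramble and 1.68, 1.36 and 1.28 in shMETTL1 (on log2 CPM with 1 added, scaled over the 12 libraries). All shMETTL1 replicates were above all shscramble replicates, as they were for 5.95% of the 12877 gene IDs in this comparison. No other member of the family separated the groups in that ratio. TMED7 overlapped only by 0.71 in shscramble replicate 1 against 0.69 in shMETTL1 replicate 1. The TMED9 ratios hold the counts taken to have chosen it, so they are a description. In shscramble alone, fitted AlkAniline-Seq over input was -0.25 on the log2 scale for TMED9 (SE 0.43), and -0.37 without replicate 1. That sign turned to 0.17 with library size alone as the scaling, to 0.028 without replicate 3 and to 0.25 without the position of TMED9 with the most reads in the 12 libraries. In shMETTL1 it was 1.48 (SE 0.44). The difference between both estimates was 1.72 (SE 0.62), or 1.83 without shscramble replicate 1. It was larger for TMED7, at 4.43 (SE 1.5), and for TMED5, at 2.65 (SE 1.2). Leaving out 1 replicate gave 2.56 to 5.87 for TMED7 and -0.11 to 3.1 for TMED5. For the other genes the difference ran from -0.57 (TMED3) to 0.25 (TMED2). Without shscramble replicate 1 it turned from -0.16 to 0.036 for TMED10 and from 0.085 to -0.42 for TMED4. No test is given for any of these.

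Counts as a share of coverage, the number of reads that span a position, did not move with the TMED9 reads. Summed over the positions of TMED9, the AlkAniline-Seq count was 4.29, 5.63 and 4.92% of coverage in shscramble and 5.57, 6.06 and 5.21% in shMETTL1. The groups overlapped. In the input the share was 6.39, 3.25 and 12.4% in shscramble and 9.11, 8.53 and 5.64% in shMETTL1.

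The plot of CPM by library sets the 7 genes side by side for both kinds of library.

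**Figure D1:**
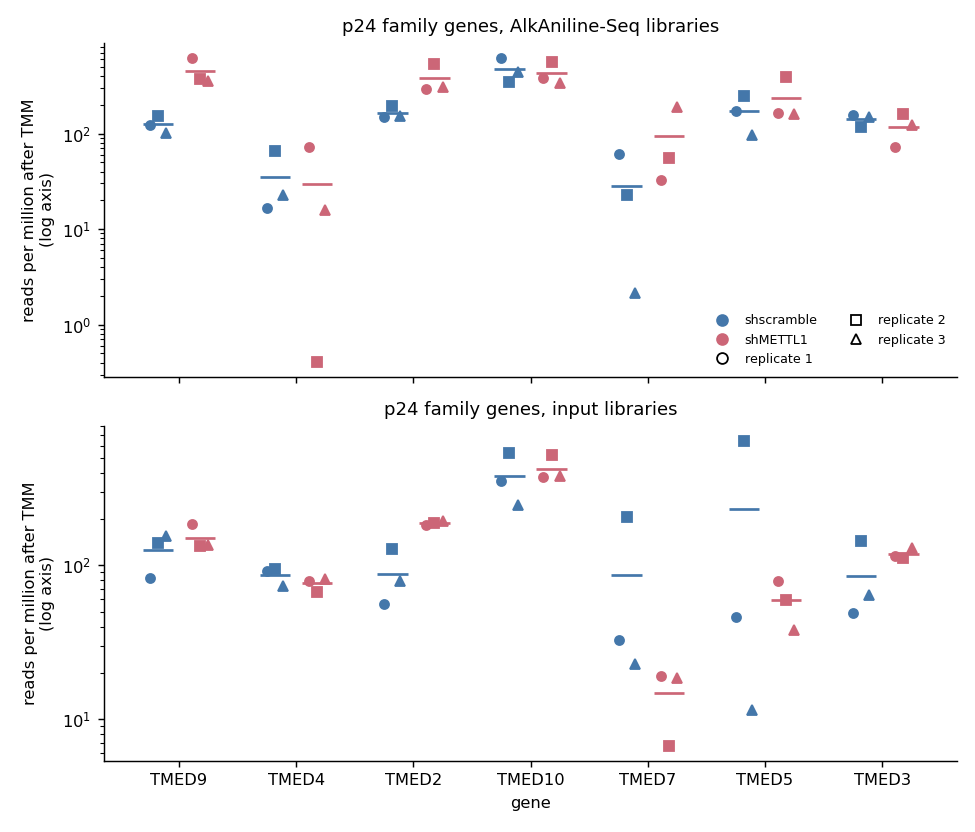
CPM after TMM scaling (log axis) of each p24 family gene in the 6 AlkAniline-Seq (top) and 6 input (bottom) libraries, with shscramble in blue, shMETTL1 in red, 1 symbol shape per replicate and a bar at the mean of 3 libraries. In AlkAniline-Seq the shMETTL1 libraries of TMED9 (358 to 614) and TMED2 (294 to 531) all lie above their shscramble libraries, and the single TMED4 read of shMETTL1 replicate 2 gives the lowest point (0.406).

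The reads of TMED9 lay at many positions, few of which were shared by libraries. Of 121 listed positions, 64 had a read in any AlkAniline-Seq library, 34 of these in exactly 1 library and 3 in all 6. Reads were found in both groups at 22 positions, in shscramble alone at 14 and in shMETTL1 alone at 28. The files give no coordinates for positions, so these are named here by their rank in AlkAniline-Seq reads.

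The first position of TMED9 had 17, 72 and 71 AlkAniline-Seq reads in shscramble and 286, 11 and 189 in shMETTL1, which was 4.13, 12.8 and 53.4% of coverage against 11.3, 0.936 and 16.3%. The second had 12, 63 and 5 reads in shscramble and 80, 353 and 74 in shMETTL1. The third had 11, 106 and 0 reads against 190, 104 and 47. At the first and the third the groups overlapped in reads, and at the second shMETTL1 was higher without overlap. Among the 3 leading positions of every gene ID tested, 33253 positions, reads were higher in shMETTL1 without overlap at 2.02% and lower at 3.8%, and in the family at 3 of 21 (1 each in TMED9, TMED2 and TMED10) and 1 of 21 (TMED3). As a share of coverage the second position of TMED9 overlapped, at 8.63, 35.8 and 8.62% against 10.6, 50.4 and 21.3%. The higher gene total in shMETTL1 was thus spread over different positions in different libraries. At the first position the input had 5, 20 and 2 reads in shscramble and 63, 11 and 19 in shMETTL1. At the second it had 43, 1 and 0 against 25, 59 and 28, and at the third 5, 0 and 8 against 45, 10 and 23. The fold of the share of coverage over that of the input at the first was 2.58, 5.27 and 50.4 in shscramble. In shMETTL1 that fold was 0.9, 0.296 and 4.38. Without the first position, the log2 difference of TMED9 was 1.99. With the highest position of every gene ID in each library in place of the sum it was 1.39. The highest position of TMED9 in the input was another one, with 44, 235 and 31 input reads in shscramble and 66, 14 and 46 in shMETTL1.

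TMED4, the other alpha member, had few AlkAniline-Seq reads in several libraries. Control libraries had 30, 175 and 32 and knockdown libraries 186, 1 and 37, or 16.5, 65.6 and 22.7 CPM against 72.6, 0.406 and 15.8 CPM. Each group thus held 1 library far above its others, and the log2 difference was -0.24 with an SE of 1.4. It was -0.59 without shscramble replicate 1, and turned to 0.64 without shscramble replicate 2, 0.35 without shMETTL1 replicate 2 and 0.075 without shMETTL1 replicate 3. In the input TMED4 was even, at 91.6, 94.8 and 72.9 CPM in shscramble and 79.5, 67.1 and 82.0 CPM in shMETTL1. The input difference was -0.18 on the log2 scale (SE 0.60, edgeR adjusted p = 0.98), and turned to 0.14 with library size alone and to 0.52 without its position with the most input reads. A single position held 47.1 to 52.9% of the input reads of TMED4 in 5 input libraries, and 99.5% in shscramble replicate 2. It had 153, 192 and 111 input reads in shscramble and 144, 110 and 125 in shMETTL1, and in AlkAniline-Seq only 8, 34 and 3 against 47, 0 and 1. AlkAniline-Seq over input was below 0 in each of the 6 replicates, from -0.18 to -5.67. The fitted log2 values were -1.53 (SE 1.0, edgeR adjusted p = 0.53) in shscramble and -1.45 (SE 1.0, edgeR adjusted p = 0.78) in shMETTL1, and neither passed the threshold. The former was -1.05 without replicate 1.

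TMED2, the only beta member, pairs with the delta member in p24 complexes and is needed for their stability. AlkAniline-Seq gave 272, 519 and 214 reads of TMED2 for shscramble against 754, 1309 and 723 for shMETTL1. These were 150, 195 and 152 CPM, a mean of 165 ± 25.4 (SD, n = 3), against 294, 531 and 309 CPM, a mean of 378 ± 133 (SD, n = 3). As for TMED9, the groups did not overlap. The log2 difference was 1.19 (SE 0.38), and 1.12 without shscramble replicate 1.

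Unlike TMED9, TMED2 also separated the groups in the input. It had 178, 261 and 255 input reads in shscramble and 707, 638 and 584 in shMETTL1, or 56.4, 128 and 79.4 CPM against 184, 187 and 193 CPM. The groups did not overlap, with shMETTL1 higher, as for 7.64% of the 11740 gene IDs tested in the input. The log2 difference was 1.10 (SE 0.49), with an unadjusted p of 0.041 and an adjusted p of 0.77 in edgeR's test, so it did not pass. It was 1.15 without the position with the most input reads of TMED2. When the leading position of every gene ID was left out, with filter and scaling redone, it was 0.37, and with the highest position of every gene ID in each library in place of the sum it was -0.045. AlkAniline-Seq over input overlapped between the groups, with log2 ratios of 1.21, 0.29 and 0.74 in shscramble and 0.63, 1.39 and 0.56 in shMETTL1. The fitted values were 0.67 (SE 0.45, edgeR adjusted p = 0.54; 0.60 without shscramble replicate 1) and 0.92 (SE 0.45, edgeR adjusted p = 0.61).

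Single positions of TMED2 differed widely between replicates of a group. The first had 47, 9 and 152 AlkAniline-Seq reads in shscramble and 76, 705 and 91 in shMETTL1, where 705 reads made up 53.9% of the TMED2 reads of shMETTL1 replicate 2. The second had 0, 6 and 0 reads in shscramble and 100, 104 and 9 in shMETTL1, and the third 17, 195 and 0 against 2, 0 and 0. Reads at the second position were thus mostly from shMETTL1 and those at the third mostly from shscramble replicate 2. The input at the second position had 10, 0 and 12 reads in shscramble and 20, 53 and 9 in shMETTL1. At the third it had 3, 9 and 5 against 85, 68 and 3, so there the input was higher in shMETTL1 replicates 1 and 2.

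TMED10, the delta member, also called p23 or TMP21, is the most studied of the family and binds gamma-secretase as well as the coats. It did not separate the groups in either kind of library. The AlkAniline-Seq level was 619, 347 and 441 CPM in shscramble and 381, 561 and 336 CPM in shMETTL1, from 1126, 925 and 621 reads against 976, 1381 and 786. The log2 difference was -0.14 (SE 0.34), and turned to 0.10 without shscramble replicate 1 and 0.026 without shMETTL1 replicate 3. In the input it was 353, 535 and 248 CPM against 373, 522 and 381 CPM, a log2 difference of 0.17 (SE 0.37, edgeR adjusted p = 0.97) that was -0.14 under DESeq2 scaling. AlkAniline-Seq over input was 0.07 (SE 0.38, edgeR adjusted p = 0.95) in shscramble, where it was -0.14 without replicate 1, and -0.09 (SE 0.38, edgeR adjusted p = 0.98) in shMETTL1.

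Within TMED10, individual positions did not follow the total. The second position had 157, 140 and 22 AlkAniline-Seq reads in shscramble and 48, 13 and 12 in shMETTL1, which was 32.2, 36.6 and 6.92% of coverage against 4.15, 1.73 and 1.87%. The third had 12, 9 and 1 reads against 48, 109 and 112, or 8.51, 4.48 and 0.840% of coverage against 17.3, 21.6 and 21.3%. In share of coverage neither position overlapped between the groups, and they went opposite ways. Of the 10042 leading positions covered in all 6 libraries, 6.53% were lower and 3.91% higher in shMETTL1 without overlap in that share, and of the 17 such family positions 1 was lower and 1 higher, both in TMED10. At the second position the input had 135, 514 and 58 reads in the control and 125, 206 and 173 in the knockdown. At the third it had 115, 2 and 22 against 72, 218 and 42. The fold of the share of coverage over that of the input was 1.11, 1.16 and 0.917 against 0.212, 0.0574 and 0.0545 at the second. At the third that fold was 0.138, 0.784 and 0.0848 against 0.664, 0.47 and 1.35. These positions were chosen for their AlkAniline-Seq reads and are described without a test.

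The log2 differences are plotted for both kinds of library, and those of TMED10, TMED7, TMED5 and TMED3 differed in sign between AlkAniline-Seq and input. The AlkAniline-Seq sign of TMED10, TMED5 and TMED3 turned when 1 replicate was left out.

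**Figure D2:**
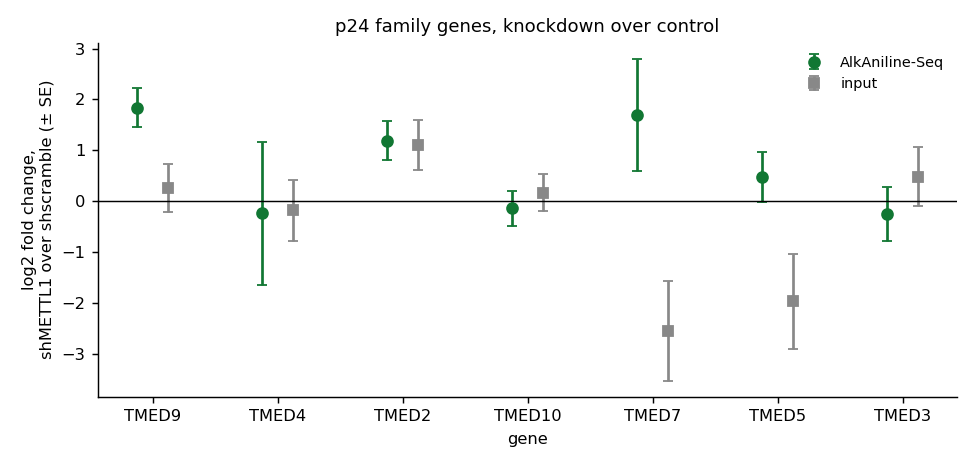
Log2 fold change of each p24 family gene, shMETTL1 over shscramble, from the edgeR fits of the 6 AlkAniline-Seq libraries (green circles) and the 6 input libraries (grey squares), with bars of 1 standard error. TMED9 stands at 1.84 in AlkAniline-Seq and 0.26 in the input, TMED2 at 1.19 and 1.10, and the bars of TMED7 and TMED4 in AlkAniline-Seq are the widest (1.1 and 1.4).

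TMED7, a gamma member that carries the receptor TLR4 toward the cell surface, had 111, 60 and 3 AlkAniline-Seq reads in shscramble and 84, 138 and 448 in shMETTL1. The groups overlapped at 61.0, 22.5 and 2.13 CPM against 32.8, 56.0 and 191 CPM, and the log2 difference was 1.70 (SE 1.1), or 2.89 without shscramble replicate 1 and 0.65 without shMETTL1 replicate 3. In the input, with 32.6, 205 and 23.0 CPM in shscramble and 19.2, 6.74 and 18.5 CPM in shMETTL1, the groups did not overlap, with shMETTL1 lower, as for 5.84% of gene IDs tested. The log2 difference in the input was -2.55 (SE 0.98), with an unadjusted p of 0.019 and an edgeR adjusted p of 0.77. Of the 417 input reads of shscramble replicate 2, 416 lay at 1 position, which had 0 to 2 reads in each other input library. The value was -0.91 without that library and -0.35 without that position.

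TMED7 reads came mostly from a single library at each leading position. The first position had 150 AlkAniline-Seq reads in shMETTL1 replicate 3 and 1 in shscramble replicate 2. The second had 35 in shscramble replicate 1 and 99 in shMETTL1 replicate 3, and the third had 133 in shMETTL1 replicate 2 and 1 in shscramble replicate 1. Of its 22 positions with a read, 12 were read in exactly 1 library and 0 in all 6. AlkAniline-Seq over input was -1.87 (SE 1.1, edgeR adjusted p = 0.45) in shscramble, and -3.32 without replicate 1 and 0.00073 without replicate 2 of that group, or 0.37 without the position of TMED7 with the most reads in the 12 libraries. In shMETTL1 it was 2.56 (SE 1.1) with an unadjusted p of 0.029 and an edgeR adjusted p of 0.53.

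TMED5, a gamma member that takes part in the export of GPI-anchored proteins and of WNT ligands, had 315, 652 and 135 AlkAniline-Seq reads in shscramble and 423, 950 and 378 in shMETTL1. These were 173, 245 and 95.8 CPM against 165, 386 and 161 CPM, which overlapped, with a log2 difference of 0.47 (SE 0.49). It was 0.47 without shscramble replicate 1 and -0.054 without shMETTL1 replicate 2, so 1 library set its sign. The input was 46.3, 638 and 11.5 CPM in shscramble and 79.5, 59.8 and 38.0 CPM in shMETTL1. Shscramble held both the highest and the lowest library. The input difference was -1.97 (SE 0.94, unadjusted p = 0.052, edgeR adjusted p = 0.77) and became 1.03 without shscramble replicate 2, so that library decided its sign. AlkAniline-Seq over input was -0.73 (SE 0.85, edgeR adjusted p = 0.75) in shscramble, -1.07 without replicate 1 and 2.03 without replicate 2. In shMETTL1 it was 1.92 (SE 0.87), with an unadjusted p of 0.038 and an edgeR adjusted p of 0.57.

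One position of TMED5 held a nearly fixed share of its AlkAniline-Seq reads. It had 136, 302 and 60 reads in shscramble and 224, 413 and 168 in shMETTL1, which was 43.2, 46.3 and 44.4% of the TMED5 reads of those libraries against 53.0, 43.5 and 44.4%. The group means were 44.6 ± 1.56% and 47.0 ± 5.24% (SD, n = 3 each). The shscramble SD is not that of 3 independent libraries, given the reads that replicate 1 shared with replicates 2 and 3. In the input the same position held 3.42, 21.3 and 35.1% in shscramble and 15, 32.4 and 16.5% in shMETTL1, below the AlkAniline-Seq share in every library. The input share of 35.1% was 13 of 37 reads. As a share of coverage the position was 24.3, 29.0 and 17.5% in shscramble AlkAniline-Seq and 24.4, 26.5 and 14.5% in shMETTL1. In the input its share of coverage was 6.02, 22.7 and 6.37% in shscramble and 28.0, 22.0 and 6.86% in shMETTL1. By that measure the input lay above AlkAniline-Seq in shMETTL1 replicate 1. This position also had the most input reads of TMED5. It was chosen for its AlkAniline-Seq reads, and no test is given. The leading positions of the other 6 genes varied more in relation to their level, as the plot of position shares shows.

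**Figure D3:**
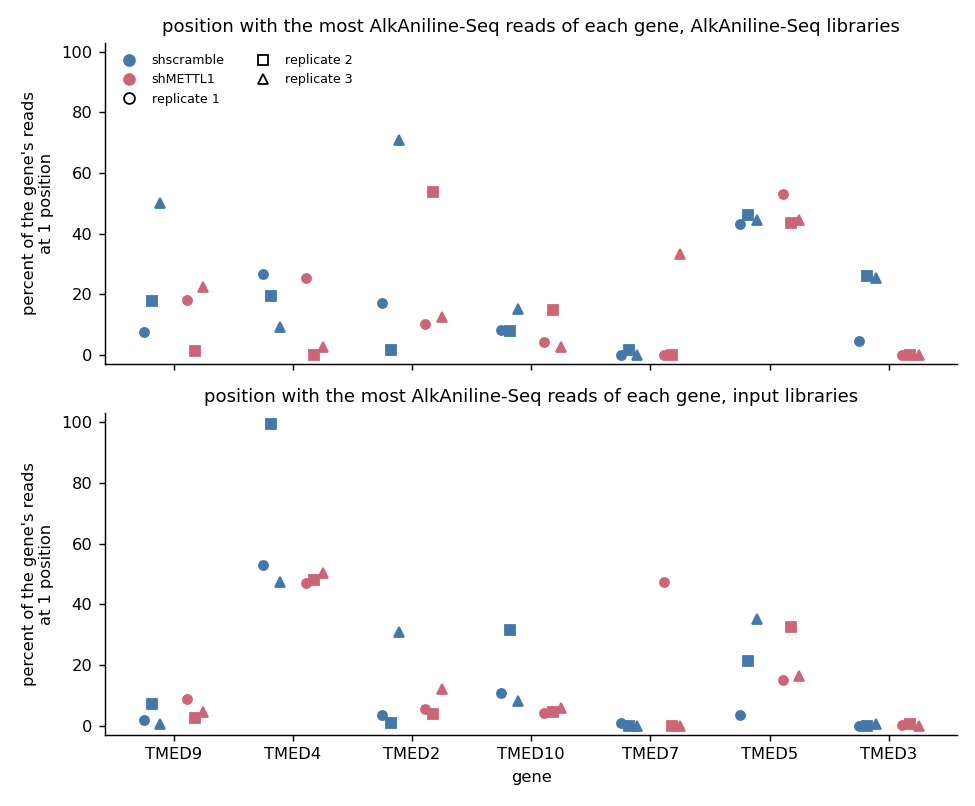
Percent of the reads of each p24 family gene that lay at its position with the most AlkAniline-Seq reads, in the 6 AlkAniline-Seq (top) and 6 input (bottom) libraries, with shscramble in blue, shMETTL1 in red and 1 symbol shape per replicate. The TMED5 position stays between 43.2 and 53.0% in AlkAniline-Seq, the TMED9 position varies, with 1.21% in shMETTL1 replicate 2 and 22.5% in replicate 3, and the TMED4 position holds 47.1 to 99.5% of reads in the input.

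TMED3, the remaining gamma member, had 285, 309 and 208 AlkAniline-Seq reads in shscramble and 184, 392 and 289 in shMETTL1, or 157, 116 and 148 CPM against 71.8, 159 and 123 CPM. The groups overlapped. The log2 difference was -0.25 (SE 0.53), and -0.17 without shscramble replicate 1. It turned to 0.034 without shMETTL1 replicate 1 and to 0.039 without the leading position of TMED3. The input was 49.1, 143 and 63.8 CPM against 115, 111 and 130 CPM, a log2 difference of 0.48 (SE 0.58, edgeR adjusted p = 0.92) that was 0.35 without the position of TMED3 with the most input reads, and -0.48 when the leading position of every gene ID was left out and the scaling redone. AlkAniline-Seq over input was 0.47 (SE 0.57, edgeR adjusted p = 0.76) in shscramble, or 0.20 without replicate 1, and -0.10 (SE 0.57, edgeR adjusted p = 0.99) in shMETTL1.

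The leading position of TMED3 had 13, 81 and 53 AlkAniline-Seq reads in shscramble and 0 in each shMETTL1 library. The input had 0, 0 and 1 reads there in shscramble and 1, 2 and 0 in shMETTL1. Its AlkAniline-Seq reads made up 76.5 and 73.6% of coverage in shscramble replicates 1 and 3 and all of it in replicate 2. In shMETTL1 the coverage there was 0, 83 and 23, so the 0 reads of replicate 1 had no coverage behind them. Input coverage was low, at 9, 0 and 1 in shscramble and 5, 2 and 1 in shMETTL1. The fold over input in shscramble was 1.76, 2.0 and 0.736. Another 2 positions of TMED3 were read in every shscramble and no shMETTL1 library, with 9, 73 and 1 reads and with 11, 1 and 43 reads. In all, 5 of the 385 family positions with an AlkAniline-Seq read had that pattern, 3 in TMED3 and 1 each in TMED9 and TMED10, against 1.08% of the 404685 positions read over all gene IDs. The reverse, a read in every shMETTL1 and no shscramble library, was seen at 1 position, in TMED2, against 0.235%. The reads that shscramble replicate 1 shared with replicates 2 and 3 count toward the former pattern.

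Across the 7 genes, 4 had an AlkAniline-Seq log2 difference above 0, as did 52.9% of the 11097 gene IDs tested (medians 0.47 and 0.07). That count and the family median include TMED9, whose counts were taken to have chosen it, so both are descriptions. Counting calls, 0 of 7 passed an adjusted p of 0.05 in the input, where 0% of the 11740 gene IDs tested did in edgeR (735 at an unadjusted p under 0.05, and 35 after adjustment in DESeq2). The members' median in the input was 0.17 against -0.04. For AlkAniline-Seq over input, 0 of the 6 genes tested passed in shscramble, where 0.637% of 12877 gene IDs did, 82 in all and 17 without shscramble replicate 1, and 0 of 6 passed in shMETTL1, where 0.21% did. The medians of these 6 genes were -0.33 and 0.41, against -0.08 and 0.17 for all gene IDs tested. The ratios of each replicate are plotted for all 7 genes.

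**Figure D4:**
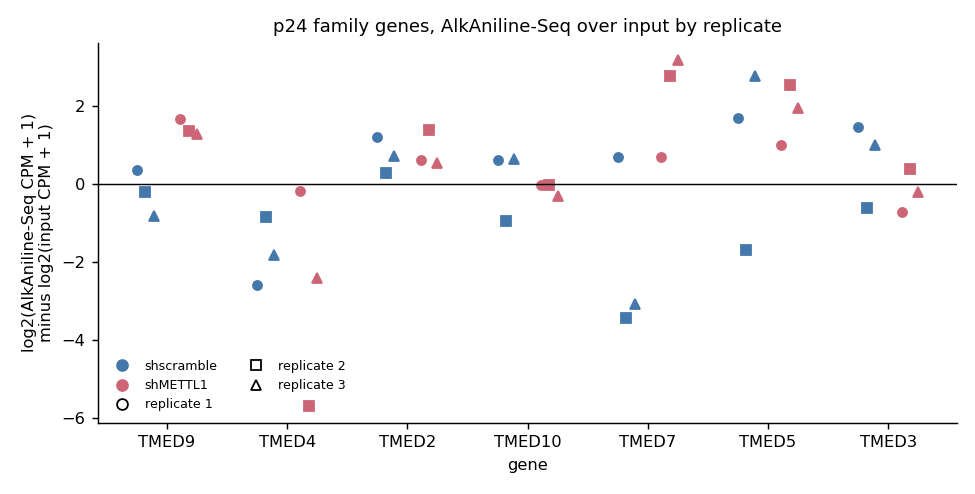
AlkAniline-Seq over input for each p24 family gene and replicate, as log2(CPM + 1) of the AlkAniline-Seq library minus that of its input, with shscramble in blue, shMETTL1 in red and 1 symbol shape per replicate. The shMETTL1 replicates of TMED9 (1.28 to 1.68) lie above its shscramble replicates (-0.81 to 0.38), and the groups of the other 6 genes overlap.

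At single positions in the input, 39 family positions had enough reads to be tested. Of these, 2 had an unadjusted p under 0.05 and 0 passed after adjustment in edgeR. Over all 20840 positions tested, 0% passed in edgeR (1169 at an unadjusted p under 0.05, and 97 after adjustment in DESeq2). Over the 714 family positions, 385 had a read in any AlkAniline-Seq library, 189 of these in exactly 1 library and 13 in all 6. Over all gene IDs 62.9% of the positions read were read in exactly 1 library and 1.9% in all 6.

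The pattern most like that of TMED9 over the 12 libraries was sought by Pearson's r of log2(CPM + 1) among the 8202 gene IDs with a mean of at least 20 CPM. The highest were ENSG00000088179 (r = 0.95) and ENSG00000157214 (r = 0.89). The first had 13, 11 and 2 AlkAniline-Seq reads in shscramble and 592, 134 and 324 in shMETTL1, and the second 118, 211 and 122 against 658, 618 and 464. Within the family TMED2 came closest, with r = 0.75 and rank 29, then TMED7 (0.40), TMED5 (0.32), TMED3 (-0.01), TMED10 (-0.09) and TMED4 (-0.33). The values differed within each kind of library, over 6 each. In AlkAniline-Seq r was 0.97 for ENSG00000088179, 0.95 for ENSG00000157214, 0.83 for TMED2, 0.56 for TMED7, 0.43 for TMED5, -0.55 for TMED3, -0.17 for TMED10 and -0.11 for TMED4. In the input it was, in the same order of genes, 0.61, 0.20, 0.62, 0.03, 0.13, 0.62, 0 and -0.30. These values describe 12 libraries of 2 kinds that share their depth and scaling, and no p is given. They also hold the AlkAniline-Seq counts taken to have chosen TMED9, so the ranking is not independent of that choice.

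Reads of near-identical sequences may have been assigned to or taken from these genes. RefSeq lists pseudogenes of TMED10 and TMED2, a readthrough transcript that starts at TMED7, and a divergent transcript next to TMED2, and how such reads were counted is not given in the sources used here.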

How the data were processed

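AlkAniline-Seq libraries of m7G cut sites and their inputs came from 3 replicates of shMETTL1 and of shscramble LNCaP-AI cells. Per position, the authors deposited the read count, the coverage (a signal), a fraction (count over coverage), and a ratio, the fold of the fraction over that of the input. The fraction equalled count over coverage within a tolerance of 1e-06 at all positions, and the ratio was not tested. Tools in the submitters' notes are Bowtie2 2.2.4, cutadapt 1.9.1 and bedtools 2.24, with the hg19 build. How reads were filtered and assigned to genes is not given in the sources used here.

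Counts were summed per gene ID, and tables were matched by row order. The test was edgeR 4.0.16 (R 4.3.3, TMM, quasi-likelihood, minimum count 10, minimum total 15), with Benjamini-Hochberg adjustment over all gene IDs or positions tested and a threshold of 0.05. The standard error was the log2 fold change over the root of F. AlkAniline-Seq over input used 1 fit of all 12 libraries. The input fit per gene ID was tested on simulated counts, drawn independently for each library. The AlkAniline-Seq fit, the fit of all 12 libraries and the reads shared among shscramble libraries were not simulated. Alternatives were DESeq2 1.42.0, library size alone, no or a stricter filter (50 reads in 3 libraries), the highest position alone, the sum without it (of every gene ID, or, added after the data were seen, of the family genes alone), the replicate block, and leaving out each replicate. The biological coefficient of variation was 0.8988 in AlkAniline-Seq and 0.8059 in the input. Intervals are not given for counts, since reads carry no molecular identifiers. All 7 genes passed the filter. Named positions were the 3 with the most AlkAniline-Seq reads of a gene and the 1 with the most input reads, and named gene IDs outside the family were the 2 most like TMED9. The TMED3 positions read in 1 group alone were named after their values were seen. The genes, lists and tests were chosen with earlier results of these data known.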

Additional observations from a re-analysis of the deposited data

How the results depend on the processing

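No family gene and no family input position passed the adjusted threshold under any alternative in the input, and none of the 6 genes other than TMED9 did so in AlkAniline-Seq over input. The genes above 0 in AlkAniline-Seq, TMED9 among them, numbered 4 and ranged from 4 to 6 when 1 replicate was left out. Those above 0 in the difference of AlkAniline-Seq over input, again with TMED9 among them, numbered 5, where 56.2% of the 12877 gene IDs tested were above 0. They numbered 3 with library size alone and 3 to 5 when 1 replicate was left out, with 3 without shscramble replicate 2. Leaving out 1 replicate, the log2 difference of TMED9 in AlkAniline-Seq was 1.56 to 2.04 and that of TMED2 0.88 to 1.36.

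Of 510 log2 fold changes under the alternatives, 65 had another sign than the value reported, 11 in AlkAniline-Seq, 14 in the input, 17 and 4 over input in shscramble and shMETTL1 and 19 in the difference between these. In AlkAniline-Seq these were TMED10 at 0.10 and TMED3 at 0.27 without the highest position of every gene ID, TMED3 at 0.31 with that position alone and 0.039 without that of the family genes alone, and the values with 1 replicate left out given for TMED10, TMED5, TMED4 and TMED3 above. Leaving out the highest position of the family genes alone was added after the data were seen. In the input these were TMED9 at -0.00019 and TMED10 at -0.14 under DESeq2, TMED4 at 0.14 with library size alone, TMED9 at -0.12, TMED2 at -0.045, TMED10 at -0.22 and TMED4 at 0.067 with the highest position per gene ID, TMED10 at -0.096, TMED4 at 0.43 and TMED3 at -0.48 without the highest position, and TMED4 at 0.52 without that of the family genes alone. Leaving out 1 replicate gave an input range of -0.077 to 0.50 for TMED10, with -0.077 without shscramble replicate 3 and -0.011 without shMETTL1 replicate 2, and of -2.57 to 1.03 for TMED5. In AlkAniline-Seq over input in shscramble these were TMED9 at 0.17 and TMED5 at 0.13 with library size alone, TMED10 at -0.038 under DESeq2, TMED10 at -0.19 and TMED5 at 0.42 with the highest position per gene ID, TMED9 at 0.15, TMED2 at -0.091 and TMED7 at 0.32 without it, and TMED9 at 0.25 and TMED7 at 0.37 without that of the family genes alone. Leaving out 1 replicate gave TMED9 -0.37 to 0.028, TMED10 -0.14 to 0.63, TMED7 -3.32 to 0.00073 and TMED5 -1.07 to 2.03. In shMETTL1 these were TMED10 at 0.10 without the highest position and 0.055 without that of the family genes alone, and TMED3 at 0.47 with it alone, and leaving out 1 replicate gave TMED3 -0.42 to 0.11. In the difference, TMED2 turned to -0.4 with library size alone, TMED3 to 0.36 with the highest position per gene ID and TMED10 to 0.046 without it. TMED5 turned to -0.11 without shscramble replicate 2. Most of the other sign changes in the difference were those of TMED4, which ran from -1.78 to 0.81 when 1 replicate was left out. The cause was not tested.

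Library size alone moved the median of all gene IDs from -0.04 to 0.22 in the input, from -0.08 to 0.30 over input in shscramble and from 0.24 to -0.28 in the difference, and DESeq2 moved the input median to -0.21. The number of gene IDs called, 1 in AlkAniline-Seq, 0 in the input, 82 and 27 over input in shscramble and shMETTL1 and 1 in the difference, ranged over the alternatives from 0 to 178, 0 to 95, 1 to 569, 0 to 159 and 0 to 95, and that of input positions from 0 to 162.

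No shared deviation was seen between libraries of the same replicate number. Their deviations from group means had correlations between -0.02 and 0.048, and not every library correlated best with its own number. Such low correlations cannot show that the numbers do not pair libraries, and each input was deposited with the AlkAniline-Seq library of its number. With the replicate block, 3 gene IDs were called in AlkAniline-Seq, 2 in the input, 109 and 45 over input in shscramble and shMETTL1, 0 in the difference and 6 input positions, with no family member among those tested. TMED9 was 1.81 in AlkAniline-Seq with the block, and TMED5 over input in shscramble turned to 0.28, or 1.08 with a block within each group, which was added after the data were seen.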
